A study of Mus musculus with 15 samples.

Results

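The comparison described here sets mouse cells that kept a Sox2 reporter for 48 h after a neuromesodermal progenitor (NMP) state against the NMPs themselves. It covers 5 of the 15 bulk RNA libraries of the series. The line, STR-KI, was derived as mouse embryonic stem cells with the genotype Sox2::mCherry/WT, Tbxt::GFP/WT, in which red fluorescence reports Sox2 and green fluorescence reports Tbxt, the gene of Brachyury. All groups passed through 48 h in N2B27 medium with 10 ng/mL FGF2 and 24 h in FGF2 with 5 µM CHIRON99021 (CHIR), an inhibitor of GSK3 that activates WNT signalling. The Sox2 48 h cells (2 libraries) were cultured for another 48 h in FGF/CHIR and sorted as positive for mCherry. The Tbxt 48 h cells (2 libraries) had the same culture and were sorted as positive for GFP. The NMPs (3 libraries) were sorted as positive for both reporters, without the further culture. Protocol labels state that cells were sorted and replated, so time, replating and gate change together between Sox2 48 h cells and NMPs and cannot be told apart. The labels do not give the GFP state of the mCherry gate, nor whether libraries of a group came from separate cultures. The p-values rest on the spread between libraries of the same group, which may be technical. That spread was pooled over all groups of the series with more than 1 library. Among them, a library of mCherry-positive cells after 7 d in FGF had 0.80 M reads. A gene can thus miss the threshold through spread in groups not compared here. All named genes of the table were compared, 56092 in all, of which 12943 reached 5 CPM (counts scaled per library to the same total) in at least 2 libraries of the series and were tested.

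NMPs lie in the caudal epiblast and tail bud, express Sox2 and Tbxt together and can form spinal cord or paraxial mesoderm. WNT and FGF ligands made there maintain the state and, with CDX factors, open the Hox clusters step by step. Cells that leave towards the spinal cord keep Sox2, lose Tbxt and gain SOX1, ZIC and POU class III factors, and cells that leave towards mesoderm switch on Tbx6, Snai1 and Notch genes.

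Sox2 and Tbxt were the sorted reporters, so their levels check the labels and are no finding. Sox2 stood at 217 and 221 CPM in Sox2 48 h cells, against 164, 241 and 224 CPM in NMPs (log2 fold change 0.08 ± 0.30, adjusted p = 0.921). Tbxt stood at 32.1 and 29.3 CPM in Sox2 48 h cells, against 284, 431 and 445 CPM in NMPs. The Sox2 libraries overlapped between the groups, and both Tbxt values of the Sox2 48 h cells lay far below all 3 NMP values.

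The step of 1 read in each library put the depth at 3.96 to 8.61 M reads in these 5 libraries. Accordingly, 3 reads were 0.348 to 0.757 CPM, floors that cover counting error only. Libraries of a group correlated at 0.977 to 0.992 (Pearson's r of log2(CPM + 1) across genes, which are not independent), and libraries of different groups at 0.938 to 0.956. The Sox2 48 h libraries differed more from each other than the NMP libraries did at single genes. Of 6814 genes with at least 20 CPM in either Sox2 48 h library, 65 were over 4-fold higher in replicate 2 and 3 in replicate 1, against 0 to 4 genes in each NMP pair. Most of the 65 (54) have symbols of predicted genes, pseudogenes or ribosomal RNA, and the others include Vegfa (20.4 and 156 CPM in replicates 1 and 2), Fn1 (179 and 762 CPM), S100a6 (161 and 689.8 CPM) and Cav1 (8.33 and 91.8 CPM). Ccn1 (18.2 and 115 CPM) and Ccn2 (5.55 and 33.6 CPM) are also among the others. None of the 68 genes was called in the comparison, although Fn1 and Vegfa passed when Sox2 48 h replicate 1 was left out (adjusted p = 0.00426 and 0.000286). Their part in other results was not tested.

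Values given as log2 fold changes are Sox2 48 h cells over NMPs on the log2(CPM + 1) scale ± SE, from limma on all 15 libraries with Benjamini-Hochberg adjustment over the 12943 genes. That scale understates the change of low genes, and genes with at most 3 reads in every library of a group are given as levels without a fold. "Rose", "fell", "higher" and "lower" mean an adjusted p under 0.05. In these bulk samples, fewer cells of a type and less RNA per cell cannot be told apart.

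In all, 1025 genes (7.92%) changed, of which 343 rose (2.65% of those tested) and 682 fell (5.27%), and the median log2 fold change over all genes tested was −0.01. Called or not, both Sox2 48 h libraries lay above all NMP libraries in 18.9% of tested genes and below all in 24.5%. A lack of overlap is therefore common and is no call by itself. The calls were fewer without Sox2 48 h replicate 2 (315 genes), Sox2 48 h replicate 1 (518), NMP replicate 3 (552) or NMP replicate 2 (611). The 59 gene lists held 147 called genes, and 71 of those kept their call when any 1 of the 5 libraries was left out.

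**Figure D1:**
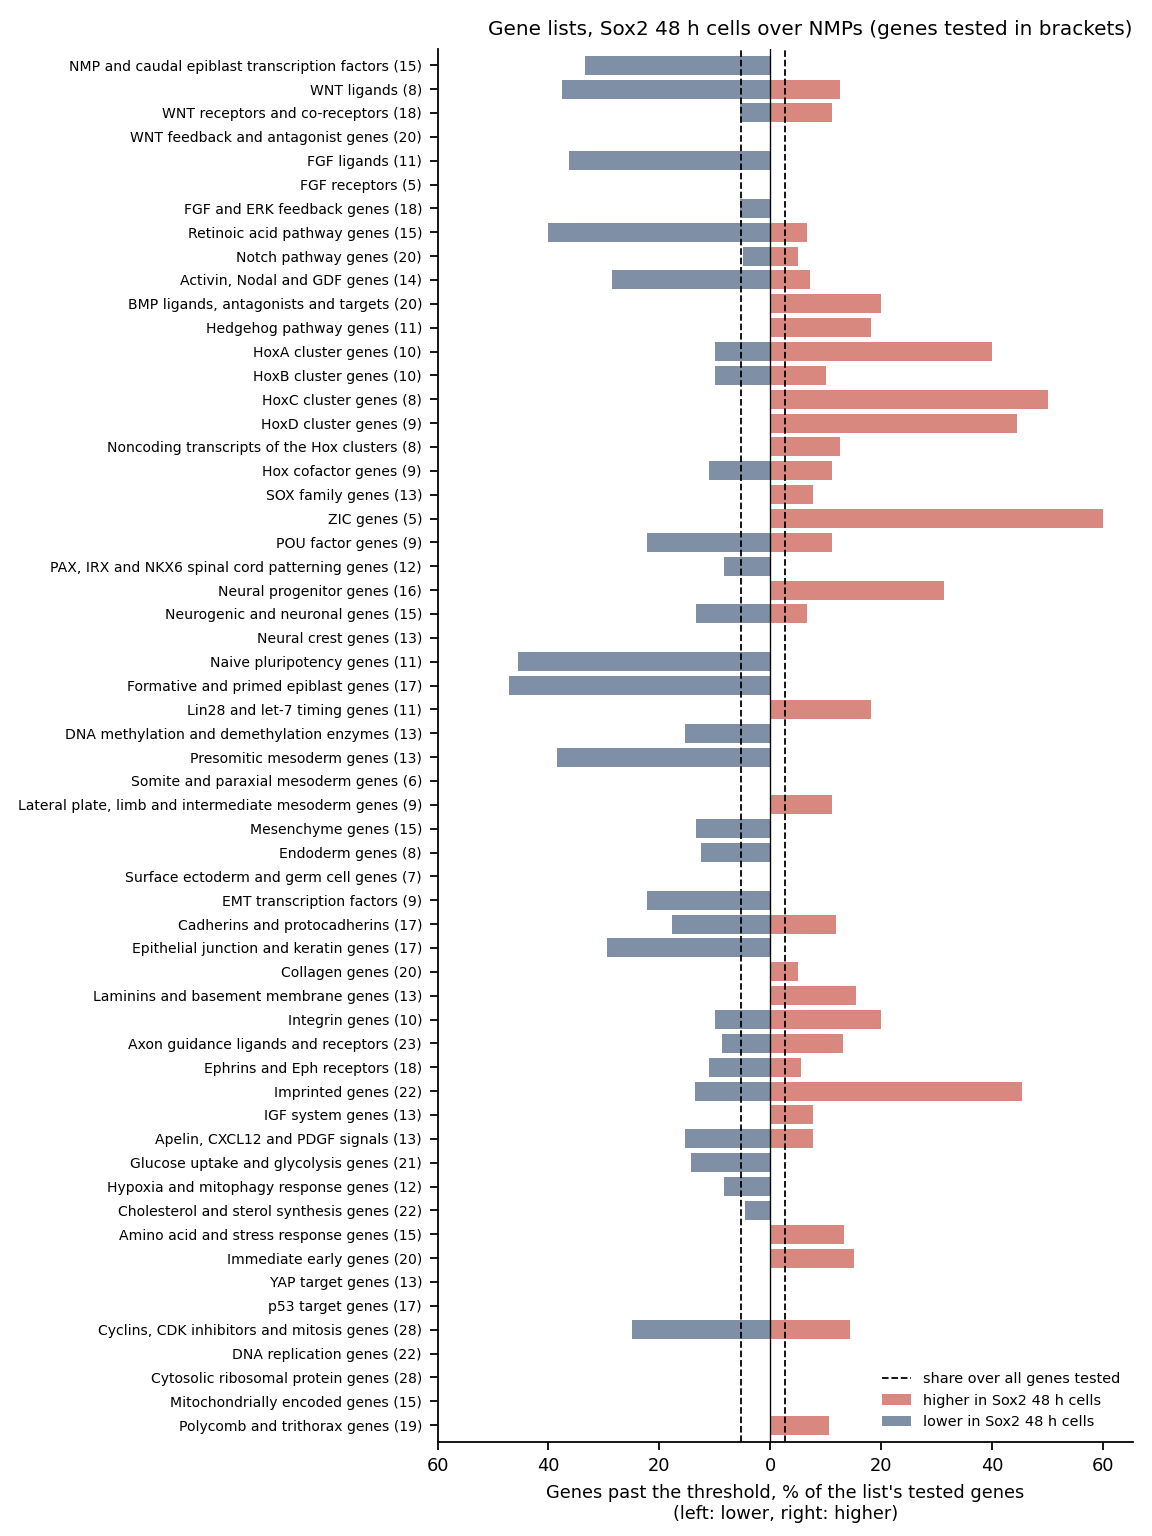
Share of each list's tested genes that fell (bars to the left) or rose (bars to the right) in Sox2 48 h cells over NMPs, in percent, with the number of tested genes in brackets. Dashed lines mark the shares over all 12943 genes, 5.27% lower and 2.65% higher. The ZIC list has the longest bar to the right and the formative and primed epiblast list the longest to the left. The bar of the NMP and caudal epiblast list includes Tbxt, a sorted reporter.

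Of the NMP and caudal epiblast list, 0 rose and 5 fell of 15 tested genes, and 4 of the 5 kept their call without any 1 library. Tbxt, a sorted reporter whose fall is no finding, is among both the 5 and the 4. The median log2 fold change of the list, which also includes Tbxt, was −0.92, or −0.61 with genes near 0 reads set at the 3-read floor. Cdx1, a homeobox gene that acts upstream of Hox genes, had 55.3 and 67.2 CPM in Sox2 48 h cells, against 544, 496 and 436 CPM in NMPs (log2 fold change −2.99 ± 0.36, adjusted p = 0.000268). Mixl1, a homeobox gene of the primitive streak, had 0 and 0.914 CPM in Sox2 48 h cells, against 19.2, 24.3 and 35.6 CPM in NMPs (log2 fold change −4.26 ± 0.42, adjusted p = 5.89e-05). Both genes were several-fold lower with no overlap between the groups. Foxa2, a factor of node and floor plate, was at 0 CPM in both libraries of Sox2 48 h cells, against 3.63, 2.41 and 3.25 CPM in NMPs, at least 4.29-fold lower against the mean 3-read floor of 0.721 CPM (adjusted p = 0.00116). Tbxt and Cdx4, the second chosen after its values were seen, were the other members that fell. Cdx4 had 28 and 16.9 CPM in Sox2 48 h cells, against 106, 104 and 56.1 CPM in NMPs (log2 fold change −1.92 ± 0.39, adjusted p = 0.00919) and lost its call without Sox2 48 h replicate 2 (adjusted p = 0.15). Other regulators of the same region did not pass the test. Cdx2 had 504 and 499.6 CPM in Sox2 48 h cells, against 638, 636 and 615 CPM in NMPs (adjusted p = 0.391). Nkx1-2, a marker of the caudal lateral epiblast, had 238 and 234 CPM in Sox2 48 h cells, against 356, 372 and 353 CPM in NMPs without overlap (adjusted p = 0.226). Nkx1-2 passed as lower when only the compared libraries were fitted (adjusted p = 0.00641). Sp5, a direct WNT target, had 61.8 and 85.3 CPM in Sox2 48 h cells, against 210.1, 201 and 197 CPM in NMPs with no overlap (−1.47 ± 0.58, adjusted p = 0.182), and passed the threshold when only the compared libraries were fitted (adjusted p = 0.00023).

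WNTs are secreted lipid-modified ligands that act through Frizzled receptors and LRP co-receptors. Of 8 tested ligand genes, 3 fell and 1 rose. Wnt3a, the ligand required for tail bud progenitors, was at 0 CPM in both libraries of Sox2 48 h cells, against 68.4, 74.5 and 64.7 CPM in NMPs, at least 95.9-fold lower against the 3-read floor (adjusted p = 1.98e-07). Wnt8a, another ligand of the caudal epiblast, was at 0.505 and 0.457 CPM in Sox2 48 h cells, against 13.7, 13.7 and 11.3 CPM in NMPs (adjusted p = 4.69e-05), with at most 2 reads in each Sox2 48 h library. Wnt5b, which acts mainly outside the β-catenin branch, was at 46.4 and 44.8 CPM in Sox2 48 h cells, against 112, 109 and 112 CPM in NMPs (log2 fold change −1.27 ± 0.31, adjusted p = 0.0249). Wnt5b lost its call without any 1 of the 5 libraries (adjusted p = 0.0662 to 0.182). Wnt5a, its close relative, moved the other way, with 132 and 107 CPM in Sox2 48 h cells, against 20.7, 28.1 and 25.9 CPM in NMPs (log2 fold change 2.22 ± 0.39, adjusted p = 0.0057). Wnt5a lost its call without Sox2 48 h replicate 1 (adjusted p = 0.0526). Wnt6 had 24 and 23.1 CPM in Sox2 48 h cells, against 28.1, 21.1 and 23.9 CPM in NMPs, overlapping values (adjusted p = 0.957). Wnt3a and Wnt8a were thus within a few reads of 0 in the Sox2 48 h cells, Wnt5b remained well above 0, and Wnt5a lay above every NMP library.

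The cells stayed in CHIR, which acts below the ligands. None of 20 tested WNT feedback and antagonist genes was called in either direction, against 7.92% of all genes tested. Of the 20, 5 lay above and 8 below all NMP libraries, so the lack of calls does not show the list unchanged. Axin2, the general feedback target of β-catenin, had 156 and 168 CPM in Sox2 48 h cells, against 188, 296 and 249.5 CPM in NMPs (−0.57 ± 0.69, adjusted p = 0.723). Notum, which removes the lipid from WNTs, had 129 and 141 CPM in Sox2 48 h cells, against 101, 107 and 86.8 CPM in NMPs (0.46 ± 1.19, adjusted p = 0.889). Lef1, a DNA-binding partner of β-catenin, had 168 and 153 CPM in Sox2 48 h cells, against 166, 206 and 201 CPM in NMPs (−0.25 ± 0.16, adjusted p = 0.43). Axin2 lay below and Notum above all NMP libraries, and the Lef1 libraries overlapped. Notum was chosen after its values were seen.

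Among 18 receptor and co-receptor genes, Fzd2 and Fzd9 rose and Ror2 fell, and each of the 3 calls was lost without at least 1 library. Fzd2 had 123 and 117 CPM in Sox2 48 h cells, against 72.5, 41.2 and 43.8 CPM in NMPs (log2 fold change 1.22 ± 0.24, adjusted p = 0.00875). Fzd2 lost its call without Sox2 48 h replicate 1 (adjusted p = 0.0733) or Sox2 48 h replicate 2 (0.0761). Ror2, a receptor for WNT5A, had 30.5 and 33.6 CPM in Sox2 48 h cells, against 47.6, 61.3 and 47.6 CPM in NMPs (log2 fold change −0.68 ± 0.16, adjusted p = 0.0219). Ror2 lost its call without NMP replicate 2 (adjusted p = 0.079), Sox2 48 h replicate 1 (0.151) or Sox2 48 h replicate 2 (0.109). Fzd9 (1.82 ± 0.49, adjusted p = 0.0378) lost it without any 1 of the 5 libraries (adjusted p = 0.0719 to 0.247). Ptk7, a co-receptor of planar polarity, had 643 and 643 CPM in Sox2 48 h cells, against 805, 857 and 814 CPM in NMPs (adjusted p = 0.292).

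**Figure D2:**
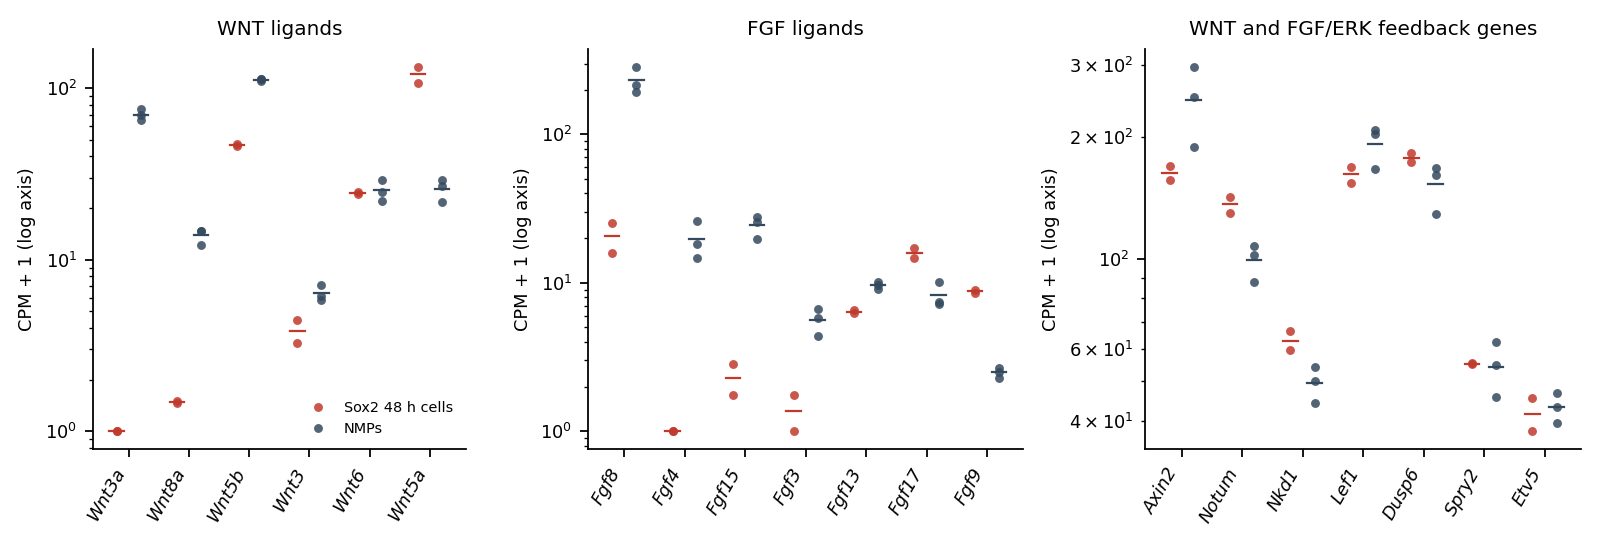
Levels of WNT ligands, FGF ligands and feedback genes of both pathways, as CPM + 1 on a log axis, with a point per library. A line marks the mean CPM of the group, plus 1, and Sox2 48 h cells stand left of NMPs. Wnt3a and Fgf4 sit at 0 CPM in both Sox2 48 h libraries, while the feedback genes Axin2, Lef1 and Dusp6 stay above 100 CPM there.

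Of 11 tested FGF ligand genes, 4 fell and none rose. Fgf8, the main FGF of the caudal epiblast, had 24.2 and 14.9 CPM in Sox2 48 h cells, against 284, 214 and 191 CPM in NMPs (log2 fold change −3.51 ± 0.39, adjusted p = 0.000164). Fgf4, an epiblast and streak ligand that needs SOX2 and POU5F1 at its enhancer, was at 0 CPM in both libraries of Sox2 48 h cells, against 13.7, 24.9 and 17.3 CPM in NMPs, at least 25.9-fold lower (adjusted p = 0.000164). Fgf15, the mouse counterpart of human FGF19, had 0.757 and 1.83 CPM in Sox2 48 h cells, against 24.5, 26.9 and 18.7 CPM in NMPs (log2 fold change −3.43 ± 0.28, adjusted p = 1.75e-05). Each of the 3 ligands lay below every NMP library and kept its call without any 1 library. Fgf3 had 0.757 and 0 CPM in Sox2 48 h cells, against 5.7, 4.82 and 3.37 CPM in NMPs (adjusted p = 0.00638), which was lost without Sox2 48 h replicate 2 (adjusted p = 0.11). Fgf17 (13.6 and 16.2 CPM in Sox2 48 h cells, against 6.48, 9.17 and 6.15 CPM in NMPs; adjusted p = 0.128) and Fgf9 (7.57 and 8.0 CPM in Sox2 48 h cells, against 1.69, 1.29 and 1.51 CPM in NMPs; adjusted p = 0.116) lay above all NMP libraries without passing the test.

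The medium supplied FGF2 throughout. Of 18 FGF and ERK feedback genes, 1 fell (5.56%, against 5.27% of all genes tested) and none rose. Dusp6, a phosphatase that acts on ERK, had 172 and 181 CPM in Sox2 48 h cells, against 128, 160.2 and 167 CPM in NMPs (0.23 ± 1.01, adjusted p = 0.941). The fallen gene was Dusp4, at 23.2 and 21.7 CPM in Sox2 48 h cells, against 58.2, 64.6 and 52.9 CPM in NMPs (log2 fold change −1.34 ± 0.35, adjusted p = 0.0347), which lost its call without any 1 of the 5 libraries (adjusted p = 0.0817 to 0.223). Fgfr1, the receptor of the caudal epiblast, had 93.9 and 70.9 CPM in Sox2 48 h cells, against 96.2, 128 and 94.3 CPM in NMPs (−0.36 ± 0.17, adjusted p = 0.231), and none of 5 receptor genes passed.

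The proximal promoters of the 2 ligands that reached 0 reads, and of Pou3f2, the POU gene that rose, are shown because these genes mark the loss and gain described here. They are RefSeq sequences of build GRCm38.p6, whereas the reads were aligned to GRCm39, and each gives the 250 bases before the annotated start, 5′ to 3′ on the strand of the gene. Capitals mark CAGGTG, an E-box read by SNAIL and ZEB factors among others, and CTTTGAT, a TCF/LEF motif, each on either strand. Their places are chr11:59290752-59291001, minus strand for Wnt3a, chr7:144861136-144861385, plus strand for Fgf4 and chr4:22488367-22488616, minus strand for Pou3f2.
Wnt3a: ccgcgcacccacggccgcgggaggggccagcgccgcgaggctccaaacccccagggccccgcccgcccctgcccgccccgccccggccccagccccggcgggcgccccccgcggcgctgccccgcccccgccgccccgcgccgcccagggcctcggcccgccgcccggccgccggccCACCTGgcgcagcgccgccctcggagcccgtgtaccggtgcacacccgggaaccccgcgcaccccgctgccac
Fgf4: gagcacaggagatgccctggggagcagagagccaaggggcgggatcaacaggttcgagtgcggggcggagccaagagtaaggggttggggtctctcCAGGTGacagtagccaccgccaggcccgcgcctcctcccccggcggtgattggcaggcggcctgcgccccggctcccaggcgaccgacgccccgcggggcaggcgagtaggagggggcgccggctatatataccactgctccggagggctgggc
Pou3f2: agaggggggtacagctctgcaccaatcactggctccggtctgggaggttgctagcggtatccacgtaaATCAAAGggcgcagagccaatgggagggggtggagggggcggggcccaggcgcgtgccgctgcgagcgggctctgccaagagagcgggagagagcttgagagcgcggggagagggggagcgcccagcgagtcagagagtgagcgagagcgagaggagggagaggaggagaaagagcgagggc
Wnt3a and Fgf4 each held a single E-box and no CTTTGAT, and Pou3f2 held a single CTTTGAT, on the opposite strand. CTTTGAT was present in 5.29% of 170 promoters of risen genes, 2.51% of 398 of fallen genes, 2.12% of 7205 of tested genes and 3.21% of all 32851 promoters of the table. The motifs CTTTGTT (TCF/LEF), ACAATGG (SOX) and ATGCAAA (octamer) were searched as well and were in none of the windows printed here. They were present in 5.03%, 3.02% and 4.12% of all promoters of the table. The other TCF/LEF motif, CTTTGTT, had the opposite order, in 2.35% of risen, 3.77% of fallen and 3% of tested genes. ACAATGG was present in 1.76% of risen, 1.26% of fallen and 1.36% of tested genes. ATGCAAA was present in 2.35% of risen, 4.77% of fallen and 3.05% of tested genes. A match describes letters, not a bound site.

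Retinoic acid from somites drives differentiation of the spinal cord, and the caudal epiblast clears it with CYP26A1. Of 15 tested pathway genes, 6 fell and 1 rose, and 5 and 1 of these kept their call without any 1 library. Cyp26a1 had 1.26 and 1.14 CPM in Sox2 48 h cells, against 21.6, 24.1 and 26.8 CPM in NMPs (log2 fold change −3.51 ± 0.22, adjusted p = 2.01e-06). Rdh10, which makes retinaldehyde from retinol, was the gene that rose, with 48.7 and 39.5 CPM in Sox2 48 h cells, against 10.9, 13 and 14.3 CPM in NMPs (log2 fold change 1.72 ± 0.26, adjusted p = 0.00142). The groups did not overlap for either gene. Rxrg, a retinoid X receptor, was at 0.252 and 0.457 CPM in Sox2 48 h cells, against 12.1, 8.68 and 11.4 CPM in NMPs (adjusted p = 0.000253). Stra8, a gene induced by retinoic acid in germ cells and stem cells, had 0.757 and 0.229 CPM in Sox2 48 h cells, against 20.7, 18.2 and 11.7 CPM in NMPs (adjusted p = 6.24e-05). Crabp1, a cytosolic retinoic acid-binding protein chosen here after its values were seen, had 5.55 and 5.71 CPM in Sox2 48 h cells, against 43.8, 31 and 28.4 CPM in NMPs (log2 fold change −2.39 ± 0.40, adjusted p = 0.00427). Crabp2 overlapped between the groups, at 104 and 74.1 CPM in Sox2 48 h cells, against 92.8, 74.3 and 80.3 CPM in NMPs (adjusted p = 0.94).

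Of 14 tested genes of Nodal, activin and GDF signalling, 4 fell and 1 rose. Fst, which encodes follistatin, an inhibitor of activins and GDF11, had 3.79 and 5.03 CPM in Sox2 48 h cells, against 178, 277 and 241 CPM in NMPs (log2 fold change −5.41 ± 0.32, adjusted p = 1.65e-06). Lefty1, a Nodal inhibitor and target, was at 0.252 and 0 CPM in Sox2 48 h cells, against 23.3, 16.1 and 14.5 CPM in NMPs (adjusted p = 8.76e-05). Gdf3, a Nodal-related ligand, had 0 and 1.14 CPM in Sox2 48 h cells, against 9.59, 9.49 and 8.48 CPM in NMPs (log2 fold change −2.80 ± 0.36, adjusted p = 0.00045). Gdf11, a ligand that sets the trunk to tail transition and advances Hox expression, rose, with 39.1 and 38.9 CPM in Sox2 48 h cells, against 14.8, 17.8 and 13.6 CPM in NMPs (log2 fold change 1.29 ± 0.19, adjusted p = 0.00131). Fst, Lefty1 and Gdf3 fell to under 6 CPM in every Sox2 48 h library, and all 4 genes kept their call without any 1 library. The follistatin-like gene Fstl1 (59.1 and 55.3 CPM in Sox2 48 h cells, against 88.4, 106 and 80.2 CPM in NMPs; log2 fold change −0.66 ± 0.16, adjusted p = 0.0204) lost its call without NMP replicate 2 (adjusted p = 0.0741), Sox2 48 h replicate 1 (0.0881) or Sox2 48 h replicate 2 (0.182).

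BMPs act through SMAD proteins and induce Id genes. Of 20 tested genes of the BMP pathway, 4 rose and none fell. Id2, an inhibitor of bHLH factors, had 124 and 117 CPM in Sox2 48 h cells, against 41.3, 35.5 and 36.5 CPM in NMPs (log2 fold change 1.65 ± 0.17, adjusted p = 6.97e-05). Its relative Id3 had 176 and 207 CPM in Sox2 48 h cells, against 71.2, 59 and 63.5 CPM in NMPs (log2 fold change 1.55 ± 0.23, adjusted p = 0.00145). Both lay above all NMP values. Bmp1, a protease that processes procollagens and chordin, had 20.7 and 19.9 CPM in Sox2 48 h cells, against 9.98, 9.17 and 10.2 CPM in NMPs (log2 fold change 0.98 ± 0.17, adjusted p = 0.00325). The ligand gene Bmp2 had 6.56 and 11.2 CPM in Sox2 48 h cells, against 0.648, 1.45 and 2.09 CPM in NMPs (log2 fold change 2.05 ± 0.35, adjusted p = 0.00345). Bmp2 lost its call without Sox2 48 h replicate 2 (adjusted p = 0.0734). Msx1, a BMP target of the dorsal neural tube, had 197 and 164 CPM in Sox2 48 h cells, against 69.3, 83.5 and 72.3 CPM in NMPs without overlap (1.25 ± 0.79, adjusted p = 0.433), and passed when only the compared libraries were fitted (adjusted p = 0.000441).

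Of 20 Notch pathway genes, Dll3 fell and Maml3 rose (1.35 ± 0.35, adjusted p = 0.0342). Maml3 lost its call without any 1 of the 5 libraries (adjusted p = 0.0735 to 0.207). Dll3, a ligand-like gene of the segmentation clock, had 6.31 and 5.49 CPM in Sox2 48 h cells, against 30.3, 37.6 and 33.4 CPM in NMPs (log2 fold change −2.33 ± 0.41, adjusted p = 0.00403). Dll3 lost its call without Sox2 48 h replicate 2 (adjusted p = 0.0614). Hes1, a Notch effector, had 243 and 186 CPM in Sox2 48 h cells, against 115, 120.4 and 119 CPM in NMPs (0.84 ± 0.45, adjusted p = 0.335). Of 11 Hedgehog pathway genes, Gas1 and Gli3 rose. Gas1 (0.58 ± 0.16, adjusted p = 0.045) lost its call without NMP replicate 1 (adjusted p = 0.107), NMP replicate 3 (0.163), Sox2 48 h replicate 1 (0.0911) or Sox2 48 h replicate 2 (0.368). Gli3 had 172 and 181 CPM in Sox2 48 h cells, against 78.9, 83.6 and 85.6 CPM in NMPs (log2 fold change 1.09 ± 0.28, adjusted p = 0.0343), but it lost its call without any 1 of the 5 libraries (adjusted p = 0.0895 to 0.211). The receptor and target gene Ptch1 overlapped, with 27.1 and 32.8 CPM in Sox2 48 h cells, against 24.4, 33.3 and 21.9 CPM in NMPs, and Shh was not tested.

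The 4 Hox clusters are switched on in the order of their genes, from paralogs 1 at the 3′ end to paralogs 13 at the 5′ end. Of 37 tested Hox genes, 13 rose. Hoxb1 fell, with 8.08 and 4.34 CPM in Sox2 48 h cells, against 89.8, 99.5 and 83.6 CPM in NMPs (log2 fold change −3.72 ± 0.38, adjusted p = 7.24e-05). Hoxd1, its paralog, moved the other way, with 34.6 and 34.7 CPM in Sox2 48 h cells, against 7.91, 14 and 10.3 CPM in NMPs (log2 fold change 1.64 ± 0.36, adjusted p = 0.0148). Hoxd1 lost its call without NMP replicate 1 (adjusted p = 0.0534), NMP replicate 3 (0.0523), Sox2 48 h replicate 1 (0.0945) or Sox2 48 h replicate 2 (0.127).

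All 3 tested paralogs 10 rose. Hoxc10 had 196 and 214 CPM in Sox2 48 h cells, against 0.907, 2.09 and 3.31 CPM in NMPs (log2 fold change 6.13 ± 0.37, adjusted p = 4.42e-06). Hoxa10 had 39.8 and 37.9 CPM in Sox2 48 h cells, against 2.59, 2.57 and 2.9 CPM in NMPs (log2 fold change 3.43 ± 0.25, adjusted p = 5.98e-06). Hoxd10 had 17.8 and 15.8 CPM in Sox2 48 h cells, against 0, 0 and 0.232 CPM in NMPs (adjusted p = 0.000268). These genes were under 4 CPM in every NMP library, and their calls held with any 1 library left out. Hoxa9 (2.15 ± 0.20, adjusted p = 4.18e-05), Hoxc9 (2.41 ± 0.20, adjusted p = 1.85e-05), Hoxc6 (2.15 ± 0.22, adjusted p = 8.01e-05) and Hoxa7 (1.33 ± 0.22, adjusted p = 0.00239) also rose and kept the call in each of these fits. Hoxb9, at 179.7 and 201 CPM in Sox2 48 h cells, against 145, 90.1 and 90.2 CPM in NMPs, did not pass (0.84 ± 0.30, adjusted p = 0.122).

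Paralogs 11 to 13 were under 7 CPM in all 5 libraries. Hoxa11 had 5.81 and 3.89 CPM in Sox2 48 h cells, against 0.259, 0 and 0.464 CPM in NMPs (log2 fold change 2.23 ± 0.39, adjusted p = 0.00359). Hoxa11 lost its call without Sox2 48 h replicate 1 (adjusted p = 0.0516). Hoxd11 had 4.8 and 3.54 CPM in Sox2 48 h cells, against 0.518, 0.482 and 0.755 CPM in NMPs (adjusted p = 0.11). Hoxa13 was at 0 CPM in both libraries of Sox2 48 h cells, against 0.259, 0.161 and 0.116 CPM in NMPs, and Hoxd12 had no read in the 5 libraries. Hoxc13 overlapped between the groups, with 1.77 and 6.17 CPM in Sox2 48 h cells, against 2.85, 4.66 and 4.06 CPM in NMPs.

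Between these ends the clusters gave different counts. In HoxB, 1 of 10 tested genes rose (Hoxb7, 0.79 ± 0.17, adjusted p = 0.0138; lost without Sox2 48 h replicate 1 (adjusted p = 0.112) or Sox2 48 h replicate 2 (0.0929)) and the median log2 fold change was −0.16, against 1.86 over 9 HoxD genes. Hoxd3 (2.29 ± 0.42, adjusted p = 0.00455; lost without Sox2 48 h replicate 2, adjusted p = 0.0639) and Hoxd8 (2.55 ± 0.58, adjusted p = 0.0214; lost without any 1 of the 5 libraries (adjusted p = 0.052 to 0.131)) rose. Hoxc4 rose by less (0.61 ± 0.17, adjusted p = 0.0467). Hoxc4 lost its call without any 1 of the 5 libraries (adjusted p = 0.0831 to 0.265). Hoxd9 had 44.9 and 32.2 CPM in Sox2 48 h cells, against 9.46, 9.65 and 9.4 CPM in NMPs without overlap (1.89 ± 0.63, adjusted p = 0.102), and it passed in the fit of the compared libraries alone (adjusted p = 0.000196). Hoxb2, Hoxb6 and Hoxb8 lay below all NMP libraries without passing, Hoxb8 at 69.9 and 57.8 CPM in Sox2 48 h cells, against 142, 110.5 and 115 CPM in NMPs (adjusted p = 0.122). In the fit of the compared libraries alone, Hoxb2, Hoxb6 and Hoxb8 passed as lower (adjusted p = 0.00383, 0.0065 and 0.00436). Whether the counting used strand is not given, so reads of overlapping sense and antisense Hox transcripts cannot be told apart. Of 8 noncoding Hox transcripts tested, Hoxd3os1, beside Hoxd3, was called higher (2.46 ± 0.57, adjusted p = 0.0224). Hoxd3os1 lost its call without any 1 of the 5 libraries (adjusted p = 0.0502 to 0.127).

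**Figure D3:**
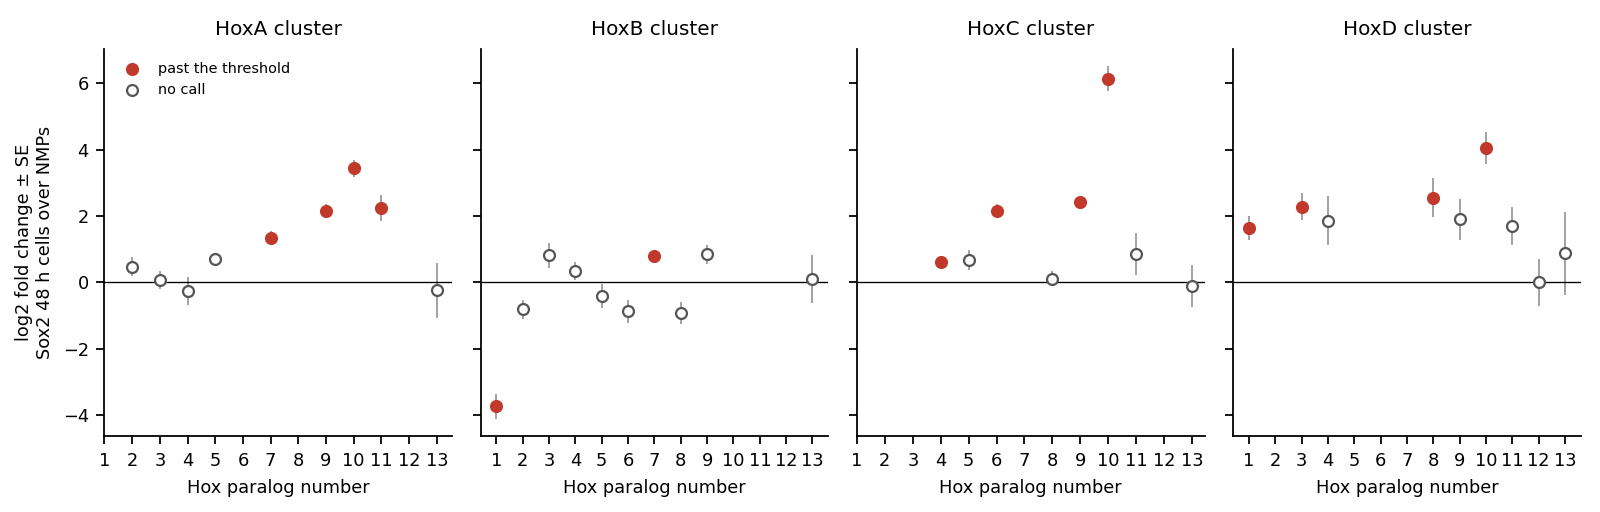
Log2 fold change ± SE of tested Hox genes, Sox2 48 h cells over NMPs, by paralog number in the 4 clusters; filled points passed the threshold and open points did not. Hoxb1 lies lowest, at −3.72, and Hoxc10 highest, at 6.13.

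Of the cofactors that bind DNA with HOX proteins, Meis1 rose, with 12.4 and 16.8 CPM in Sox2 48 h cells, against 1.56, 2.25 and 2.44 CPM in NMPs (log2 fold change 2.34 ± 0.22, adjusted p = 4.18e-05). Pbx3 fell, with 9.84 and 9.6 CPM in Sox2 48 h cells, against 17.4, 17.4 and 19 CPM in NMPs (log2 fold change −0.82 ± 0.18, adjusted p = 0.0155). Pbx3 lost its call without NMP replicate 3 (adjusted p = 0.066), Sox2 48 h replicate 1 (0.0873) or Sox2 48 h replicate 2 (0.132). In all, 9 cofactor genes were tested.

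Of 13 tested SOX genes, 1 rose. Sox1, a marker of committed neural progenitors, had 14.9 and 12.1 CPM in Sox2 48 h cells, against 2.2, 2.73 and 1.63 CPM in NMPs (log2 fold change 2.19 ± 0.33, adjusted p = 0.00124). Its relative Sox3 had 44.7 and 51.7 CPM in Sox2 48 h cells, against 33.3, 23.6 and 23.6 CPM in NMPs without overlap (0.84 ± 0.28, adjusted p = 0.0991). Sox11, a partner of neural differentiation, had 421 and 401 CPM in Sox2 48 h cells, against 185, 283 and 244 CPM in NMPs (0.81 ± 0.41, adjusted p = 0.302). Sox17, which marks endoderm, had 0.505 and 0.229 CPM in Sox2 48 h cells, against 2.46, 1.45 and 1.04 CPM in NMPs, and Sox10, which marks neural crest, was at 0 CPM in both Sox2 48 h libraries.

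Of 5 ZIC genes, 3 rose. Zic1, a factor of the dorsal neural tube, had 192 and 182 CPM in Sox2 48 h cells, against 20.5, 30.4 and 30.3 CPM in NMPs (log2 fold change 2.76 ± 0.36, adjusted p = 0.000826). Zic2 had 27.8 and 28.8 CPM in Sox2 48 h cells, against 13.9, 13.7 and 12 CPM in NMPs (log2 fold change 1.05 ± 0.29, adjusted p = 0.0406). Zic2 lost its call without any 1 of the 5 libraries (adjusted p = 0.0801 to 0.24). Zic4 had 5.55 and 9.37 CPM in Sox2 48 h cells, against 1.69, 1.77 and 1.63 CPM in NMPs (log2 fold change 1.61 ± 0.36, adjusted p = 0.0163). Zic4 lost its call without NMP replicate 3 (adjusted p = 0.056) or Sox2 48 h replicate 2 (0.214).

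Pou3f2 (Brn2), a neural progenitor factor, had 19.7 and 27.2 CPM in Sox2 48 h cells, against 1.56, 1.13 and 1.74 CPM in NMPs (log2 fold change 3.30 ± 0.30, adjusted p = 4.03e-05). Pou5f1 (Oct4), the pluripotency factor, had 2.65 and 3.43 CPM in Sox2 48 h cells, against 152, 92.7 and 125 CPM in NMPs (log2 fold change −4.92 ± 0.41, adjusted p = 2.09e-05). The groups did not overlap for either gene, and both calls held with any 1 library left out. Pou3f1 (Oct6), a gene of primed epiblast and early neural cells, fell, with 4.8 and 2.97 CPM in Sox2 48 h cells, against 15.6, 12.7 and 14.5 CPM in NMPs (log2 fold change −1.66 ± 0.44, adjusted p = 0.0373). Pou3f1 lost its call without any 1 of the 5 libraries (adjusted p = 0.0823 to 0.304).

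Of 16 tested neural progenitor genes, 5 rose and none fell, with a median log2 fold change of 0.75; Sox1 and Ncam1 kept the call without any 1 library. Ncam1, a neural adhesion molecule, had 231 and 209 CPM in Sox2 48 h cells, against 46, 64.4 and 50.7 CPM in NMPs (log2 fold change 2.03 ± 0.25, adjusted p = 0.00038). Vim, an intermediate filament gene of progenitors and mesenchyme, had 699 and 1028 CPM in Sox2 48 h cells, against 332, 489.8 and 446 CPM in NMPs (log2 fold change 1.02 ± 0.26, adjusted p = 0.0355). Vim lost its call without NMP replicate 1 (adjusted p = 0.107), NMP replicate 2 (0.0574), NMP replicate 3 (0.0832) or Sox2 48 h replicate 2 (0.325). Msi1, an RNA-binding protein of neural progenitors, had 101 and 93.9 CPM in Sox2 48 h cells, against 106, 112 and 113 CPM in NMPs (adjusted p = 0.663).

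Of 15 neuronal genes tested, Stmn2 and Stmn3 fell and Elavl4 rose, the last lost without any 1 of the 5 libraries (adjusted p = 0.0989 to 0.239). Stmn2, a regulator of microtubules in axons, had 4.04 and 3.43 CPM in Sox2 48 h cells, against 52.9, 54.8 and 66.3 CPM in NMPs (log2 fold change −3.64 ± 0.35, adjusted p = 5.29e-05). Its relative Stmn3 was at 0.505 and 0.229 CPM in Sox2 48 h cells, against 9.59, 5.79 and 8.82 CPM in NMPs (adjusted p = 0.00364). Stmn3 lost its call without Sox2 48 h replicate 2 (adjusted p = 0.058). Ina, a neuronal intermediate filament gene outside that list, was also lower, with 1.01 and 3.89 CPM in Sox2 48 h cells, against 43, 52.6 and 53.3 CPM in NMPs (log2 fold change −4.01 ± 0.54, adjusted p = 0.00081). Tubb3 was at 9.59 and 26.4 CPM in Sox2 48 h cells, against 30.5, 19.8 and 24.3 CPM in NMPs (adjusted p = 0.763), with Sox2 48 h replicate 1 below and replicate 2 within the NMP range. The summed level of the 22 genes listed was 90.9 and 102 CPM in Sox2 48 h cells, against 139 to 159 CPM in NMPs.

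Genes of spinal cord patterning gave 1 call in 12, the fall of Foxa2. Pax3, a dorsal factor, had 21.7 and 20.1 CPM in Sox2 48 h cells, against 6.87, 7.56 and 6.39 CPM in NMPs without overlap (1.47 ± 0.99, adjusted p = 0.468) and passed in the fit of the compared libraries alone (adjusted p = 0.000769). Irx3 had 17.7 and 22.4 CPM in Sox2 48 h cells, against 10.1, 9.97 and 7.31 CPM in NMPs (1.06 ± 0.53, adjusted p = 0.293). Nkx6-1 had 14.9 and 53 CPM in Sox2 48 h cells, against 6.48, 7.56 and 12.5 CPM in NMPs (1.62 ± 0.74, adjusted p = 0.249), where replicate 2 of the Sox2 48 h cells was far above replicate 1.

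Neural crest genes summed to 343 and 316 CPM in Sox2 48 h cells, against 156 to 204 CPM in NMPs, with 0 of 13 called. Presomitic mesoderm genes summed to 163 and 155 CPM in Sox2 48 h cells, against 269.7 to 304 CPM in NMPs, with 5 of 13 lower. Of these 5 calls, 1, that of Cyp26a1, held with any 1 library left out. Tbx6, their defining factor, chosen here after its values were seen, was at 0.757 and 0 CPM in Sox2 48 h cells, against 2.46, 1.77 and 1.97 CPM in NMPs. Somite genes summed to 34.1 and 32.2 CPM in Sox2 48 h cells, against 19.9 to 26.2 CPM in NMPs. Lateral plate and limb genes summed to 13.4 and 21.7 CPM in Sox2 48 h cells, against 12.4 to 14.5 CPM in NMPs. Endoderm genes summed to 128 and 117 CPM in Sox2 48 h cells, against 107 to 122 CPM in NMPs, with 3 endoderm genes at 0 in all 5 libraries. Blood and endothelial genes summed to 37.4 and 29.3 CPM in Sox2 48 h cells, against 48.4 to 61.1 CPM in NMPs. Mesenchyme genes summed to 299 and 904 CPM in Sox2 48 h cells, against 206 to 345 CPM in NMPs, where Fn1 gave most of the high value of replicate 2. The part of other cell types in the results was not tested.

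Genes of formative and primed epiblast fell in 8 of 17 tested and rose in none (median log2 fold change −1.32), and 4 of the 8 kept the call without any 1 library. Utf1, a chromatin factor of pluripotent cells, had 3.28 and 2.74 CPM in Sox2 48 h cells, against 40.2, 20.1 and 29.7 CPM in NMPs (log2 fold change −2.90 ± 0.41, adjusted p = 0.0008). Zscan10, a zinc finger gene of pluripotent cells, had 4.8 and 1.37 CPM in Sox2 48 h cells, against 32.7, 28.1 and 40.2 CPM in NMPs (log2 fold change −3.21 ± 0.42, adjusted p = 0.00052). Together with Pou5f1, both were under 6 CPM in every Sox2 48 h library and over 20 CPM in every NMP library. Sall4 had 69.2 and 48.9 CPM in Sox2 48 h cells, against 157, 204 and 191 CPM in NMPs without overlap (−1.64 ± 0.69, adjusted p = 0.216), and passed in the fit of the compared libraries alone (adjusted p = 0.000284). Of 11 naive genes, 5 fell, with a median of −1.72, or −1.36 with genes near 0 reads at the floor. Dppa5a had 3.16 and 3.12 CPM in Sox2 48 h cells, against 154, 102 and 119.6 CPM in NMPs (log2 fold change −4.91 ± 0.94, adjusted p = 0.0111). Dppa5a lost its call without Sox2 48 h replicate 1 (adjusted p = 0.0671) or Sox2 48 h replicate 2 (0.088). Klf5 had 21.6 and 13.4 CPM in Sox2 48 h cells, against 60.6, 84.1 and 94.5 CPM in NMPs (log2 fold change −2.14 ± 0.39, adjusted p = 0.00613). Klf5 lost its call without Sox2 48 h replicate 2 (adjusted p = 0.088). Fgf4, also in that list, was the member whose call held with any 1 library left out.

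The de novo DNA methyltransferase genes were the enzymes that fell in a list of 13. Dnmt3a had 26.5 and 24.2 CPM in Sox2 48 h cells, against 56.4, 78 and 62.1 CPM in NMPs (log2 fold change −1.32 ± 0.23, adjusted p = 0.0034), lost without Sox2 48 h replicate 2 (adjusted p = 0.0581). Dnmt3b had 70.9 and 74.7 CPM in Sox2 48 h cells, against 141, 201 and 169.9 CPM in NMPs (log2 fold change −1.20 ± 0.25, adjusted p = 0.0111), lost without Sox2 48 h replicate 1 (adjusted p = 0.0876) or Sox2 48 h replicate 2 (0.0902). The maintenance enzyme gene Dnmt1 overlapped, with 201 and 186 CPM in Sox2 48 h cells, against 175, 282 and 221 CPM in NMPs (adjusted p = 0.782).

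LIN28 proteins block maturation of let-7 miRNAs, which in turn repress Hmga2 and Igf2bp genes. Of 11 genes of this axis, 2 rose. Hmga2, a chromatin protein gene, had 359.8 and 368 CPM in Sox2 48 h cells, against 74.5, 83.5 and 69.9 CPM in NMPs (log2 fold change 2.25 ± 0.13, adjusted p = 1.61e-06). Igf2bp2, an RNA-binding protein gene, had 97.7 and 123 CPM in Sox2 48 h cells, against 33.7, 35.5 and 29.96 CPM in NMPs (log2 fold change 1.70 ± 0.18, adjusted p = 9.49e-05). Lin28a had 342 and 345 CPM in Sox2 48 h cells, against 378, 363 and 392.1 CPM in NMPs (−0.14 ± 0.15, adjusted p = 0.7). Trim71, another let-7 target, had 216 and 235 CPM in Sox2 48 h cells, against 218, 232 and 226 CPM in NMPs (0.00 ± 0.31, adjusted p = 1). The groups overlapped for Trim71, and Lin28a lay just below all NMP libraries.

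Of 17 epithelial junction and keratin genes, 5 fell and none rose, and all 5 calls held with any 1 library left out. Cdh1 (E-cadherin) had 6.81 and 3.43 CPM in Sox2 48 h cells, against 68.7, 95.7 and 87.7 CPM in NMPs (log2 fold change −3.84 ± 0.34, adjusted p = 2.94e-05). Epcam, an epithelial adhesion molecule, had 14.9 and 9.83 CPM in Sox2 48 h cells, against 91.7, 102 and 104 CPM in NMPs (log2 fold change −2.93 ± 0.30, adjusted p = 8.17e-05). Ocln (occludin) of tight junctions had 2.02 and 1.37 CPM in Sox2 48 h cells, against 10.2, 15.1 and 11 CPM in NMPs (log2 fold change −2.28 ± 0.32, adjusted p = 0.000818). The serine protease inhibitors of epithelial surfaces fell with them. Spint1 had 5.05 and 3.43 CPM in Sox2 48 h cells, against 37.5, 42.6 and 41.9 CPM in NMPs (log2 fold change −3.01 ± 0.27, adjusted p = 3.39e-05). Spint2, chosen after its values were seen, had 39.6 and 32.5 CPM in Sox2 48 h cells, against 152, 112 and 126 CPM in NMPs (log2 fold change −1.82 ± 0.26, adjusted p = 0.000901). Tjp1, a tight junction scaffold gene, was not called, with 58.1 and 52.6 CPM in Sox2 48 h cells, against 51.2, 79.9 and 58.3 CPM in NMPs (−0.16 ± 0.22, adjusted p = 0.746). The keratin gene Krt18 was at 12.4 and 11 CPM in Sox2 48 h cells, against 4.67, 6.11 and 3.83 CPM in NMPs (1.13 ± 0.36, adjusted p = 0.0829).

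Cdh2 (N-cadherin) rose, with 94.6 and 105 CPM in Sox2 48 h cells, against 47.6, 80.001 and 63 CPM in NMPs (log2 fold change 0.67 ± 0.19, adjusted p = 0.0458). Cdh2 lost its call without NMP replicate 1 (adjusted p = 0.109), NMP replicate 3 (0.12), Sox2 48 h replicate 1 (0.137) or Sox2 48 h replicate 2 (0.312). Fat3, an atypical cadherin of the nervous system, had 29.5 and 21.9 CPM in Sox2 48 h cells, against 7.0, 9.49 and 10.1 CPM in NMPs (log2 fold change 1.44 ± 0.21, adjusted p = 0.000895). Pcdh1, a protocadherin of epithelia, fell, with 3.53 and 1.83 CPM in Sox2 48 h cells, against 34, 26.2 and 23 CPM in NMPs (log2 fold change −2.99 ± 0.29, adjusted p = 5.89e-05). Both of these kept the call without any 1 library. Of 17 tested cadherin genes, 2 rose and 3 fell.

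Of 9 tested genes of the epithelial-mesenchymal transition, Snai1 and Esrp1 fell and none rose. Snai1, a repressor of Cdh1, had 1.51 and 1.83 CPM in Sox2 48 h cells, against 3.24, 6.27 and 6.27 CPM in NMPs (log2 fold change −1.19 ± 0.25, adjusted p = 0.0117). Snai1 lost its call without NMP replicate 3 (adjusted p = 0.0552), Sox2 48 h replicate 1 (0.0979) or Sox2 48 h replicate 2 (0.0781). Zeb1 had 25.7 and 33.8 CPM in Sox2 48 h cells, against 11.9, 16.7 and 15 CPM in NMPs without overlap (0.99 ± 0.32, adjusted p = 0.0878). Zeb2 had 48 and 40.1 CPM in Sox2 48 h cells, against 39, 75.3 and 50.6 CPM in NMPs (−0.27 ± 0.23, adjusted p = 0.584). Esrp1, a splicing regulator of epithelial cells, was at 0.252 and 0.686 CPM in Sox2 48 h cells, against 4.02, 5.15 and 5.46 CPM in NMPs (adjusted p = 0.000997).

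The promoters of Epcam and Spint2 are shown because these epithelial genes fell and their windows hold several E-boxes. The sequences are the 250 bases before the start in RefSeq GRCm38.p6, 5′ to 3′ on the strand of the gene, with motifs on either strand in capitals: CAGGTG, the T-box motif AGGTGTG and the CDX/HOX motif TTTATNG. They lie at chr17:87635729-87635978, plus strand for Epcam and chr7:29281978-29282227, minus strand for Spint2.
Epcam: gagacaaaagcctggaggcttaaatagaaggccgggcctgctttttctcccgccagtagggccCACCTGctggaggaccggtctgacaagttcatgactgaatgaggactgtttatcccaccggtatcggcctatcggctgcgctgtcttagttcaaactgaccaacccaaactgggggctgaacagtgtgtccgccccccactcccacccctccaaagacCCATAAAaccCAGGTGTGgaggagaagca
Spint2: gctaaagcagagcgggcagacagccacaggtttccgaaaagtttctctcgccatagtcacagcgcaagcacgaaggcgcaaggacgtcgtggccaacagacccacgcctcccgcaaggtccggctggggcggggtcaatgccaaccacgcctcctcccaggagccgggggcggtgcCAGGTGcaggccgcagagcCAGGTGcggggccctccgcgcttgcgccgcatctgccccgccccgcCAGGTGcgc
Epcam held 2 E-boxes, at bases −187 to −182 and −19 to −14 from the start, and the second overlaps a T-box motif, AGGTGTG, at −18 to −12. A CDX/HOX motif lies at −29 to −23. Spint2 held 3, starting at −74, −55 and −9. Over genes with 1 promoter entry, the E-box was present in 22.6% of 398 fallen genes, 10% of 170 risen genes and 13.9% of 7205 tested genes, and in 17.2% of all 32851 promoters of the table. AGGTGTG was present in 4.27% of fallen, 2.35% of risen, 3.48% of tested genes and 5.1% of all promoters. TTTATNG was present in 5.78% of fallen, 5.88% of risen, 5.76% of tested genes and 9.81% of all promoters. Median GC content was 60.8% in fallen, 62% in risen and 61.2% in tested genes. Of the 12943 genes tested, 9106 had an entry. Spint1, which also fell, held no CAGGTG in this window.

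**Figure D4:**
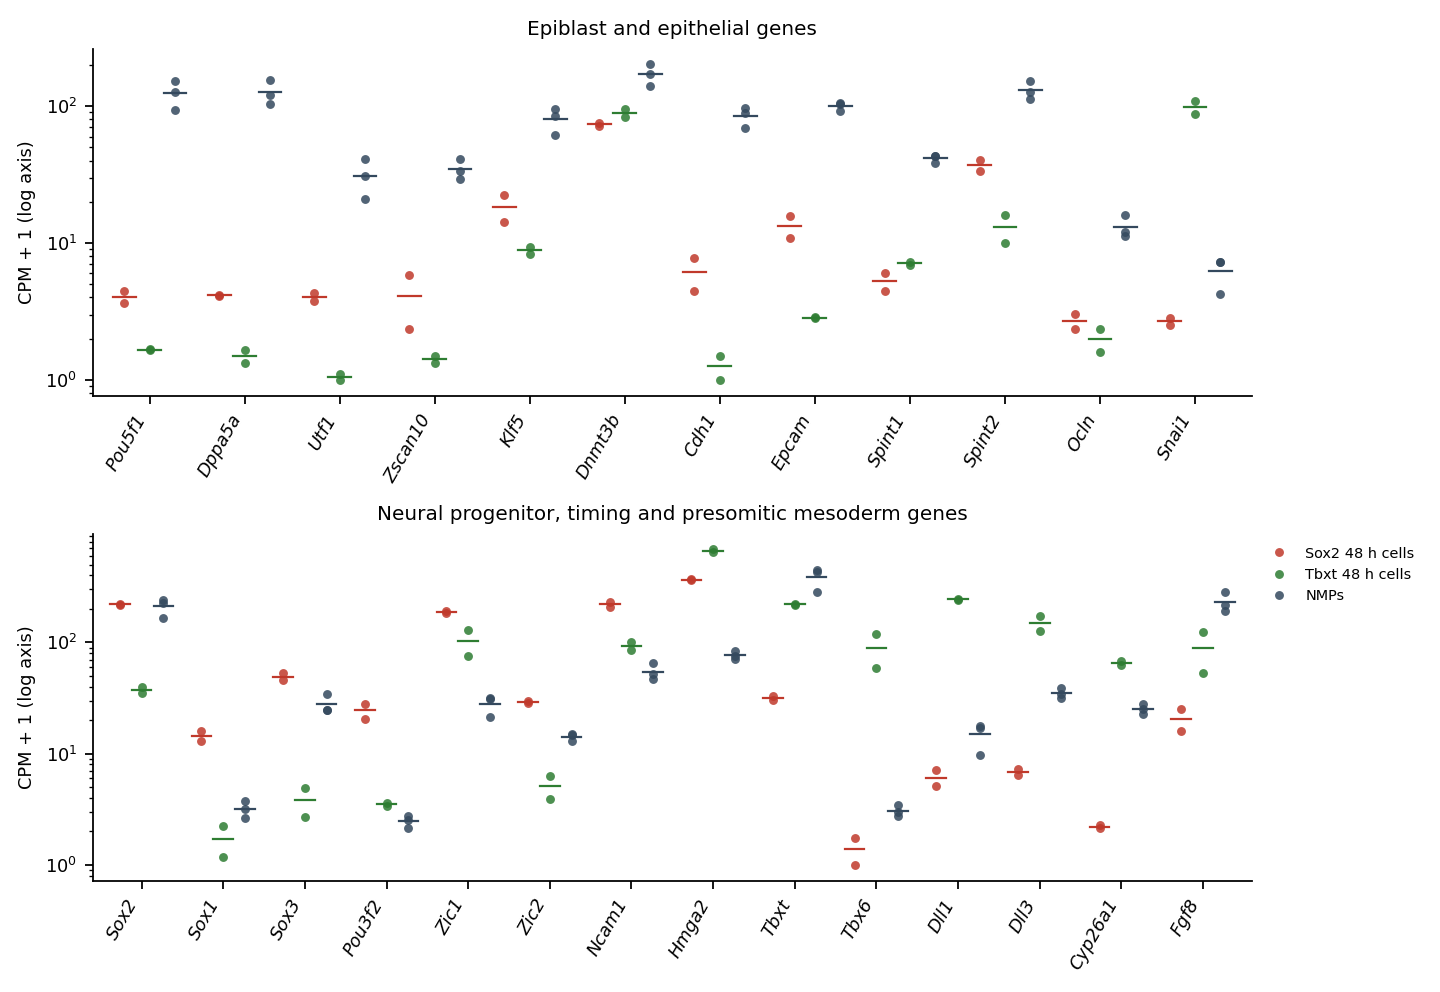
Levels of epiblast and epithelial genes (top) and of neural progenitor, timing and presomitic mesoderm genes (bottom), as CPM + 1 on a log axis. A point stands for each library and a line for the mean CPM of the group, plus 1. Sox2 48 h cells, Tbxt 48 h cells and NMPs stand from left to right. Pou5f1 and Cdh1 stand highest in NMPs, Sox1 and Pou3f2 highest in Sox2 48 h cells, and Tbx6, Dll1 and Snai1 highest in Tbxt 48 h cells.

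Of 20 collagen genes, Col3a1, a fibrillar collagen, rose, with 154 and 142 CPM in Sox2 48 h cells, against 3.24, 3.46 and 2.44 CPM in NMPs (log2 fold change 5.21 ± 0.41, adjusted p = 4.18e-05). Col1a1 had 40.4 and 78.6 CPM in Sox2 48 h cells, against 17.4, 32 and 21.5 CPM in NMPs (1.27 ± 0.96, adjusted p = 0.527). Col1a2 had 20.4 and 17.1 CPM in Sox2 48 h cells, against 20.4, 21.6 and 25 CPM in NMPs (−0.24 ± 0.61, adjusted p = 0.888). Neither was called. Of 13 laminin and basement membrane genes, 2 rose. Lama1, a laminin chain of the neural tube basement membrane, had 18.7 and 15.3 CPM in Sox2 48 h cells, against 2.98, 3.38 and 4.64 CPM in NMPs (log2 fold change 1.96 ± 0.24, adjusted p = 0.000284). Sparc, a matrix glycoprotein, had 145 and 114 CPM in Sox2 48 h cells, against 45.4, 54.5 and 54 CPM in NMPs (log2 fold change 1.31 ± 0.22, adjusted p = 0.00247). Fn1 differed more between the Sox2 48 h libraries than between groups, with 179 and 762 CPM in Sox2 48 h cells, against 109, 196 and 169 CPM in NMPs (1.26 ± 0.52, adjusted p = 0.204). The genes of the fibronectin receptor rose, Itga5 with 11.4 and 17.4 CPM in Sox2 48 h cells, against 5.44, 6.43 and 3.95 CPM in NMPs (log2 fold change 1.28 ± 0.25, adjusted p = 0.00645). Its partner Itgb1 had 87.3 and 148 CPM in Sox2 48 h cells, against 52.9, 59.2 and 51.8 CPM in NMPs (log2 fold change 1.05 ± 0.21, adjusted p = 0.00876). In both, replicate 2 was above replicate 1, and both lost the call without Sox2 48 h replicate 2 (adjusted p = 0.129 and 0.166).

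Of 23 axon guidance genes, 3 rose and 2 fell. Sema3a, a repulsive semaphorin, had 58.7 and 52.1 CPM in Sox2 48 h cells, against 5.31, 5.95 and 6.15 CPM in NMPs (log2 fold change 3.05 ± 0.23, adjusted p = 7.97e-06). Of its neuropilin receptors, Nrp2 rose, with 90.6 and 82.9 CPM in Sox2 48 h cells, against 29.6, 41.5 and 45.7 CPM in NMPs (log2 fold change 1.16 ± 0.18, adjusted p = 0.00142). Nrp1 also rose, with 7.32 and 12.6 CPM in Sox2 48 h cells, against 2.98, 2.09 and 2.9 CPM in NMPs (log2 fold change 1.55 ± 0.42, adjusted p = 0.0424), but lost its call without any 1 of the 5 libraries (adjusted p = 0.077 to 0.363). Ntn1 (netrin 1), a floor plate attractant, fell, with 2.27 and 1.6 CPM in Sox2 48 h cells, against 13.5, 15.6 and 13.9 CPM in NMPs (log2 fold change −2.39 ± 0.24, adjusted p = 5.8e-05). Among ephrins and their receptors, Epha1 fell, with 3.53 and 5.26 CPM in Sox2 48 h cells, against 43.2, 40.04 and 41.6 CPM in NMPs (log2 fold change −3.00 ± 0.55, adjusted p = 0.00567). Epha1 lost its call without Sox2 48 h replicate 1 (adjusted p = 0.0617).

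Apln, a peptide ligand, fell, with 8.58 and 4.8 CPM in Sox2 48 h cells, against 38.4, 40.2 and 40.3 CPM in NMPs (log2 fold change −2.45 ± 0.29, adjusted p = 0.000213). Apela, the other ligand of the same receptor, overlapped, with 84.8 and 74.6 CPM in Sox2 48 h cells, against 98.4, 74.8 and 103 CPM in NMPs (−0.19 ± 0.23, adjusted p = 0.711). The receptor gene Aplnr was at 1.26 and 0.229 CPM in Sox2 48 h cells, against 2.59, 3.86 and 4.64 CPM in NMPs (log2 fold change −1.47 ± 0.38, adjusted p = 0.0315). Aplnr lost its call without NMP replicate 2 (adjusted p = 0.104), NMP replicate 3 (0.132) or Sox2 48 h replicate 2 (0.325). Cxcr4, a chemokine receptor gene, rose, with 49.8 and 71.3 CPM in Sox2 48 h cells, against 24.2, 19 and 19 CPM in NMPs (log2 fold change 1.49 ± 0.25, adjusted p = 0.00247). Cxcr4 lost its call without Sox2 48 h replicate 2 (adjusted p = 0.0646). Thy1, a surface glycoprotein of neurons and stroma, was at 0.252 and 0.229 CPM in Sox2 48 h cells, against 9.59, 9.81 and 9.64 CPM in NMPs (adjusted p = 0.000125).

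Imprinted genes are expressed from the copy of a single parent, and many act on embryonic growth. Of 22 tested, 10 rose and 3 fell (median log2 fold change 0.51), and 5 and 2 of these kept the call without any 1 library. Igf2, a growth factor gene, had 626 and 605 CPM in Sox2 48 h cells, against 54.4, 65.8 and 72.6 CPM in NMPs (log2 fold change 3.25 ± 0.45, adjusted p = 0.00225). Cdkn1c, an inhibitor of cyclin-dependent kinases, had 135 and 103 CPM in Sox2 48 h cells, against 41.3, 33.4 and 32 CPM in NMPs (log2 fold change 1.71 ± 0.17, adjusted p = 6.36e-05). Peg12 had 39.4 and 43.4 CPM in Sox2 48 h cells, against 4.8, 4.02 and 4.64 CPM in NMPs (log2 fold change 2.95 ± 0.40, adjusted p = 0.000997). In each of these genes the Sox2 48 h libraries lay above all NMP libraries. Gm49394 gave nearly the same values as Igf2, with 623 and 601 CPM in Sox2 48 h cells, against 54.1, 65.8 and 72.6 CPM in NMPs, so the reads behind both may be shared and are not counted as a separate finding.

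Peg3, a zinc finger gene, and its divergent neighbour Usp29 rose together. Peg3 had 309 and 383 CPM in Sox2 48 h cells, against 69.9, 108 and 99.2 CPM in NMPs (log2 fold change 1.91 ± 0.20, adjusted p = 0.000104). Usp29 had 15.5 and 19.3 CPM in Sox2 48 h cells, against 3.5, 2.41 and 2.9 CPM in NMPs (log2 fold change 2.23 ± 0.26, adjusted p = 0.000211). Their 250-base upstream windows share 163 bases on chromosome 7 (RefSeq GRCm38.p6). The noncoding RNAs of the Dlk1-Meg3 cluster, expressed from the maternal copy, fell. Meg3 had 133 and 87 CPM in Sox2 48 h cells, against 311, 332 and 327 CPM in NMPs (log2 fold change −1.58 ± 0.23, adjusted p = 0.000973). Rian had 34.6 and 22.3 CPM in Sox2 48 h cells, against 100.3, 112 and 128 CPM in NMPs (log2 fold change −1.98 ± 0.29, adjusted p = 0.00118). Mirg had 5.05 and 3.89 CPM in Sox2 48 h cells, against 13.2, 17.5 and 16.4 CPM in NMPs (log2 fold change −1.61 ± 0.37, adjusted p = 0.0185). Mirg lost its call without NMP replicate 2 (adjusted p = 0.0671), NMP replicate 3 (0.0651), Sox2 48 h replicate 1 (0.0744) or Sox2 48 h replicate 2 (0.185). All 3 lay below every NMP library. Airn, the RNA that silences Igf2r on the paternal copy, rose, with 21.6 and 27.2 CPM in Sox2 48 h cells, against 4.02, 4.72 and 3.02 CPM in NMPs (log2 fold change 2.37 ± 0.34, adjusted p = 0.000844). Airn runs antisense through Igf2r, whose own level was 87.1 and 73.8 CPM in Sox2 48 h cells, against 44.3, 62.9 and 55.7 CPM in NMPs (0.57 ± 0.25, adjusted p = 0.224), and without a stated strand their reads cannot be told apart. H19, next to Igf2 and chosen after its values were seen, was at 0 and 0.229 CPM in Sox2 48 h cells, against 0.13, 0 and 0.116 CPM in NMPs, at most 1 read in any of these libraries.

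**Figure D5:**
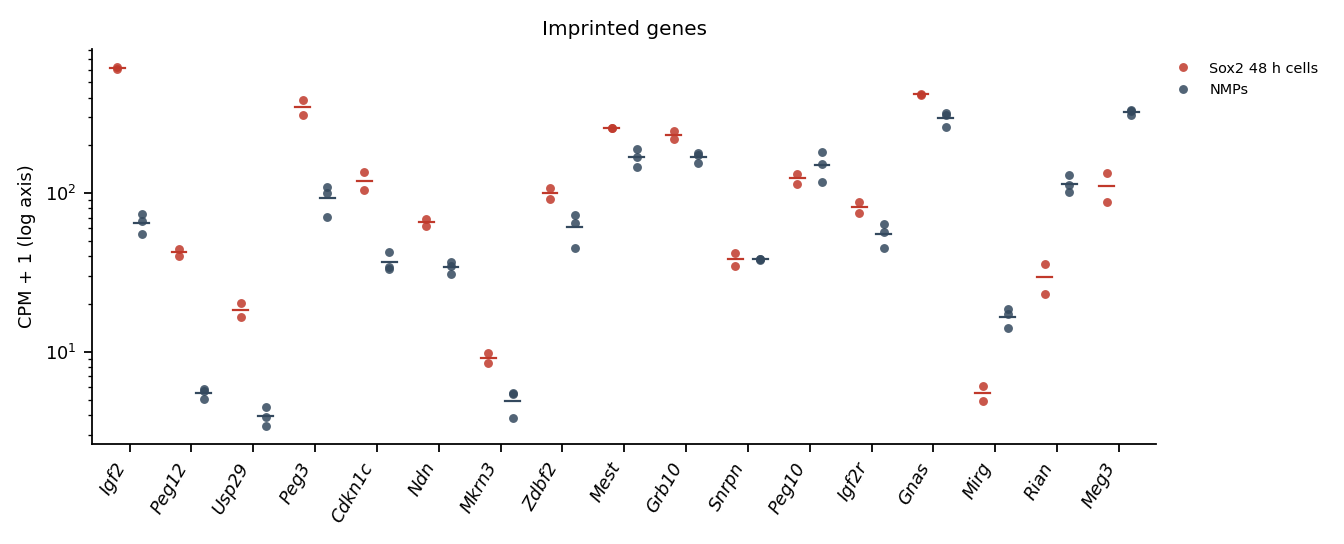
Levels of imprinted genes as CPM + 1 on a log axis, with a point per library and a line at the mean CPM of the group, plus 1. Sox2 48 h cells stand left of NMPs. Igf2, Peg12, Usp29 and Peg3 are at the left with higher values in Sox2 48 h cells, and Mirg, Rian and Meg3 at the right with lower ones.

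Of 28 cyclin, inhibitor and mitosis genes, 4 rose and 7 fell, and of these 11 calls those of Cdkn1c and Ccnb2 held without any 1 library. Ccnb2, a mitotic cyclin, had 60.3 and 52.9 CPM in Sox2 48 h cells, against 115, 119 and 112 CPM in NMPs (log2 fold change −1.02 ± 0.15, adjusted p = 0.000973). The G1 genes Ccnd2 (0.67 ± 0.15, adjusted p = 0.0133; lost without Sox2 48 h replicate 1 (adjusted p = 0.109) or Sox2 48 h replicate 2 (0.0809)) and Cdk6 (1.18 ± 0.21, adjusted p = 0.00402; lost without Sox2 48 h replicate 2, adjusted p = 0.0646) rose. Plk1, a mitotic kinase, had 48 and 45.9 CPM in Sox2 48 h cells, against 85.2, 79.7 and 80.8 CPM in NMPs (log2 fold change −0.79 ± 0.14, adjusted p = 0.00327). Plk1 lost its call without Sox2 48 h replicate 2 (adjusted p = 0.0539). None of 22 DNA replication genes was called, against 7.92% of all genes tested, and 9 lay below and 1 above all NMP libraries. Mcm2 had 259 and 247 CPM in Sox2 48 h cells, against 325, 405 and 329.9 CPM in NMPs (−0.47 ± 0.16, adjusted p = 0.103). Pcna had 392.1 and 329.6 CPM in Sox2 48 h cells, against 380.5, 443 and 416 CPM in NMPs (−0.20 ± 0.18, adjusted p = 0.605). Myc had 101 and 142 CPM in Sox2 48 h cells, against 21.9, 27.8 and 30.2 CPM in NMPs without overlap (2.14 ± 0.66, adjusted p = 0.085), and passed in the fit of the compared libraries alone (adjusted p = 0.000109).

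Of 21 glucose uptake and glycolysis genes, 3 fell and none rose. Slc2a1 (GLUT1), the main glucose transporter, had 377 and 471 CPM in Sox2 48 h cells, against 804, 972 and 801 CPM in NMPs (log2 fold change −1.02 ± 0.21, adjusted p = 0.00906). Slc2a1 lost its call without Sox2 48 h replicate 1 (adjusted p = 0.107). Slc16a3 (MCT4), a lactate exporter, had 2.78 and 2.06 CPM in Sox2 48 h cells, against 38.9, 46.8 and 47.4 CPM in NMPs (log2 fold change −3.73 ± 0.83, adjusted p = 0.0261). Slc16a3 lost its call without any 1 of the 5 libraries (adjusted p = 0.073 to 0.163). Genes of glycolytic enzymes such as Ldha and Pkm were not called. Ldha had 533 and 456 CPM in Sox2 48 h cells, against 683, 764 and 734 CPM in NMPs (−0.56 ± 0.32, adjusted p = 0.36). Pkm had 282 and 335 CPM in Sox2 48 h cells, against 385, 353 and 388 CPM in NMPs (−0.29 ± 0.35, adjusted p = 0.726). Egln3, an oxygen sensor induced by hypoxia, fell, with 1.77 and 1.6 CPM in Sox2 48 h cells, against 7.65, 13.2 and 9.4 CPM in NMPs (log2 fold change −2.02 ± 0.28, adjusted p = 0.000755).

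The AP-1 gene Jun had 36.1 and 35.4 CPM in Sox2 48 h cells, against 5.83, 12.1 and 9.99 CPM in NMPs (log2 fold change 1.89 ± 0.26, adjusted p = 0.000705). Jund had 51.6 and 73.1 CPM in Sox2 48 h cells, against 30.3, 18.9 and 27.6 CPM in NMPs (log2 fold change 1.26 ± 0.20, adjusted p = 0.00163). Both rose and kept the call without any 1 library, in a list of 20 immediate early genes with 3 higher and none lower. Atf4, the central factor of the amino acid response, had 205 and 158 CPM in Sox2 48 h cells, against 99.3, 94.1 and 105 CPM in NMPs (log2 fold change 0.85 ± 0.15, adjusted p = 0.00419). Atf4 lost its call without Sox2 48 h replicate 1 (adjusted p = 0.073). Bmi1, a Polycomb gene, rose, with 47.6 and 44.8 CPM in Sox2 48 h cells, against 11.3, 17.3 and 17 CPM in NMPs (log2 fold change 1.56 ± 0.24, adjusted p = 0.00129), in a list of 19 Polycomb and trithorax genes with 2 higher and none lower. No gene was called among 28 cytosolic ribosomal protein genes, 15 mitochondrially encoded genes, 17 p53 targets or 13 YAP targets. The share over all genes tested was 7.92%, so lists this short can lack a call without being unchanged. Of the p53 targets, 5 lay above and 4 below all NMP libraries, and of the YAP targets, 6 above and 1 below.

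The list of the 15 largest falls at 20 CPM or more also held genes of no fixed group. Sprr2a1, Sprr2a2 and Sprr2a3, near-identical small proline-rich protein genes whose reads the counting may split, were lower. Sprr2a2 had 0.568 and 0.533 CPM in Sox2 48 h cells, against 54.7, 75.8 and 146 CPM in NMPs (adjusted p = 2.48e-06). Tdh, a threonine dehydrogenase of mouse pluripotent cells, had 2.52 and 3.2 CPM in Sox2 48 h cells, against 87.1, 70.8 and 99.4 CPM in NMPs (log2 fold change −4.48 ± 0.67, adjusted p = 0.00163). Pla2g1b, a secreted phospholipase, had 1.01 and 0.457 CPM in Sox2 48 h cells, against 45, 28.3 and 27.8 CPM in NMPs (log2 fold change −4.31 ± 0.35, adjusted p = 1.75e-05). Vrtn (vertnin), which in pigs is associated with vertebra number, was at 0.252 and 0.457 CPM in Sox2 48 h cells, against 29.9, 18 and 23.2 CPM in NMPs (adjusted p = 0.000117). All were under 4 CPM in both Sox2 48 h libraries. Among the largest rises was that of Gxylt2, a xylosyltransferase that acts on Notch, with 21.7 and 26.3 CPM in Sox2 48 h cells, against 2.85, 2.41 and 2.55 CPM in NMPs (log2 fold change 2.79 ± 0.22, adjusted p = 1.09e-05). Tril, a co-receptor of Toll-like receptors, had 113 and 138 CPM in Sox2 48 h cells, against 16.7, 23.3 and 21.9 CPM in NMPs (log2 fold change 2.55 ± 0.26, adjusted p = 8.76e-05).

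The Tbxt 48 h cells had the same time in FGF/CHIR and differ by the gate. Both 48 h groups were compared with the same NMPs, so the direct contrast is given as the test of a difference. Sox2 48 h cells were higher than Tbxt 48 h cells in 240 genes (1.85%) and lower in 265 (2.05%), together 3.9% of those tested. The Tbxt 48 h cells themselves were higher than NMPs in 7.82% and lower in 10.5% of genes, 18.4% in all. Without single libraries, the count of 505 was 148 (Sox2 48 h replicate 2), 322 (Tbxt 48 h replicate 1) or 124 (Tbxt 48 h replicate 2), and without Sox2 48 h replicate 1 it was 492, with 63% of calls higher against 47.5% of 505 in the full fit.

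Of 16 tested neural progenitor genes, 3, Sox3, Sox1 and Ncam1, were higher and 2, Notch1 and Ptprz1, were lower in Sox2 48 h cells than in Tbxt 48 h cells. Sox3 had 44.7 and 51.7 CPM in Sox2 48 h cells and 3.95 and 1.69 CPM in Tbxt 48 h cells, against 33.3, 23.6 and 23.6 CPM in NMPs (log2 difference between the 48 h groups 3.75 ± 0.31, adjusted p = 3.03e-05). Sox1 had 1.215 and 0.169 CPM in Tbxt 48 h cells (3.17 ± 0.36, adjusted p = 0.000283). The call of Ncam1 was lost without any 1 of the 4 libraries (adjusted p = 0.0646 to 0.261). Outside that list, Pou3f2 had 2.63 and 2.36 CPM in Tbxt 48 h cells (2.79 ± 0.33, adjusted p = 0.000411). Zic2 had 2.94 and 5.23 CPM in Tbxt 48 h cells (2.56 ± 0.31, adjusted p = 0.000488). The Sox2 48 h values of Sox3, Sox1, Pou3f2 and Zic2 were all above these. Of 13 SOX genes, 4 were higher and none lower than in Tbxt 48 h cells. The 4 were Sox1, Sox2, Sox3 and Sox12, of which Sox2 was a sorted reporter and so is no finding. The call of Sox12 was lost without Sox2 48 h replicate 2 or Tbxt 48 h replicate 2. Nkx1-2, which did not pass against NMPs, was higher than in Tbxt 48 h cells, with 62 and 67 CPM in Tbxt 48 h cells (1.86 ± 0.30, adjusted p = 0.00424). Apela was at 5.92 and 4.05 CPM in Tbxt 48 h cells (3.77 ± 0.25, adjusted p = 5.26e-06).

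Presomitic mesoderm genes were lower in 10 of 13 tested, and 9 of the 10 calls held with any 1 of the 4 libraries left out. The other one, Tbx6, no longer passed the filter on low values without either Tbxt 48 h library and was then not tested. Dll1, a Notch ligand of the presomitic mesoderm, had 6.06 and 4.11 CPM in Sox2 48 h cells and 242 and 245 CPM in Tbxt 48 h cells, against 8.81, 16.9 and 16.1 CPM in NMPs (−5.35 ± 0.48, adjusted p = 7.21e-05). Snai1 had 109 and 87.1 CPM in Tbxt 48 h cells (−5.20 ± 0.28, adjusted p = 7.07e-07). Tbx6 had 119 and 57.9 CPM in Tbxt 48 h cells (adjusted p = 6.8e-06). Pcdh19, a protocadherin, had 212 and 284 CPM in Tbxt 48 h cells (−4.40 ± 0.34, adjusted p = 2.91e-05). Lmo2, a cofactor of blood and mesoderm, had 257 and 357 CPM in Tbxt 48 h cells (−3.86 ± 0.37, adjusted p = 7.81e-05). Cyp26a1 had 67 and 61.3 CPM in Tbxt 48 h cells (−4.89 ± 0.24, adjusted p = 5.28e-07), so the low level in Sox2 48 h cells was not shared by Tbxt 48 h cells.

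Epithelial genes were higher than in Tbxt 48 h cells in 9 of 17 tested, although 5 were lower than in NMPs. Of the 9 calls, 2, those of Epcam and Cldn6, held with any 1 of the 4 libraries left out. Epcam had 1.82 and 1.86 CPM in Tbxt 48 h cells (2.21 ± 0.33, adjusted p = 0.00231). Cldn6, a claudin of epiblast epithelium, had 8.08 and 6.63 CPM in Sox2 48 h cells and 0.405 and 0.338 CPM in Tbxt 48 h cells, against 11.9, 10.5 and 8.59 CPM in NMPs (2.60 ± 0.32, adjusted p = 0.000497). Cdh1 had 0.506 and 0 CPM in Tbxt 48 h cells (2.26 ± 0.37, adjusted p = 0.00456; lost without Tbxt 48 h replicate 2 (adjusted p = 0.0849)). For Epcam and Cdh1 the Sox2 48 h libraries lay between those of the Tbxt 48 h cells and the NMPs.

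None of the 13 risen Hox genes differed between the 48 h groups by the test. Hoxc10 had 137 and 79.4 CPM in Tbxt 48 h cells (0.97 ± 0.41, adjusted p = 0.223). Hoxa10 had 31.2 and 32.4 CPM in Tbxt 48 h cells (0.28 ± 0.27, adjusted p = 0.604). Hoxa9 had 93.3 and 92.5 CPM in Tbxt 48 h cells (−0.07 ± 0.22, adjusted p = 0.9). Hoxb1 was lower than in Tbxt 48 h cells, the call made among the Hox genes of the 4 clusters, with 104 and 104 CPM in Tbxt 48 h cells (−3.92 ± 0.42, adjusted p = 0.000171). Wnt5a had 121 and 109 CPM in Tbxt 48 h cells (0.05 ± 0.43, adjusted p = 0.967), while Wnt3a kept 40.5 and 26.2 CPM in Tbxt 48 h cells (adjusted p = 2.14e-06). Hmga2 was lower than in Tbxt 48 h cells, with 686 and 646 CPM in Tbxt 48 h cells (−0.87 ± 0.14, adjusted p = 0.00478). Igf2 had 1665 and 1659 CPM in Tbxt 48 h cells (−1.43 ± 0.50, adjusted p = 0.155). In Tbxt 48 h cells, formative and primed epiblast genes summed to 475 and 476 CPM. Their sum was 476 and 462 CPM in Sox2 48 h cells, against 934 to 998 CPM in NMPs. Of 17 tested, 1, Utf1, was called between the 48 h groups, and lost its call without any 1 library. Imprinted genes summed to 4073 and 4357 CPM in Tbxt 48 h cells. Their sum was 2843 and 2771 CPM in Sox2 48 h cells, against 1713 to 1964 CPM in NMPs. A p that misses the threshold does not show that the groups are alike.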

How the data were processed

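Total RNA of sorted cells was sequenced from oligo-dT primed, tagmented libraries with molecular identifiers, per the labels' protocols. The authors deposited 1 table of CPM (counts scaled to each library's total) for 15 libraries in 8 groups. The submitters' processing notes name STAR 2.7, SAMtools 1.21 and GRCm39; the labels and notes name no counting tool, annotation or strand setting. Rows with no gene name (21909 of 78409) and 92 spike-in rows were left out, and 627 rows that share 311 symbols were summed, leaving 56092 genes. Of the values above 0 in each library, 71.1 to 78.7% were whole multiples of 1 read, too few to recover counts. No count model was therefore the main test.

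Genes with at least 5 CPM in 2 libraries were fitted as log2(CPM + 1) with limma 3.58.1 (trend, robust) in R 4.3.3, 1 mean per group over all 15 libraries (7 residual degrees of freedom), with Benjamini-Hochberg adjusted p-values and a threshold of 0.05. On simulated data the fit recovered 96% of 2-fold and 100% of 4-fold changes, with 2 false calls over 11405 genes. All simulated libraries were drawn around the NMP means with the same spread setting for every gene. Only genes with an NMP mean of 20 CPM or more were changed. Spread that differs between genes, and odd libraries, were not simulated. These shares therefore do not give the rate of missed or false calls in the data here. The comparison and the gene lists were chosen with earlier results of these data known. Genes named are Sox2, Tbxt, the 15 largest changes in each direction without overlap and a mean of 20 CPM or more in whichever group was higher, up to 4 members of each list in each direction and without a call by highest CPM, and any WNT, FGF, Hox, SOX, ZIC, POU or cadherin gene; Cdx4, Crabp1, Spint2, Tbx6, Notum, H19 and the genes that set the Sox2 48 h libraries apart were named after their values were seen. Alternatives changed the pseudocount, filter, scaling, libraries fitted, weights and single libraries. A few genes are not reported here.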

Additional observations from a re-analysis of the deposited data

Results flagged for a closer look

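The following genes are given because Sox2 48 h cells and Tbxt 48 h cells moved in opposite directions from the same NMPs and the direct difference between the 48 h groups passed the test (limma, Benjamini-Hochberg adjusted p). Snai1 differed by −5.20 on the log2 scale between Sox2 48 h and Tbxt 48 h cells (adjusted p = 7.07e-07), with −1.19 in Sox2 48 h cells and 4.02 in Tbxt 48 h cells against NMPs. Cyp26a1 differed by −4.89 (adjusted p = 5.28e-07), with −3.51 in Sox2 48 h cells and 1.37 in Tbxt 48 h cells. Dll3 differed by −4.43 (adjusted p = 0.000147), with −2.33 in Sox2 48 h cells and 2.10 in Tbxt 48 h cells. Aplnr differed by −3.47 (adjusted p = 0.000411), with −1.47 in Sox2 48 h cells and 2.00 in Tbxt 48 h cells. Fgf3 differed by −3.38 (adjusted p = 0.000758), a fitted value with at most 3 reads in each Sox2 48 h library and therefore no bound. Pbx3 differed by −1.46 (adjusted p = 0.00123), with −0.82 in Sox2 48 h cells and 0.64 in Tbxt 48 h cells. Zic2 was the gene with the opposite order, with a difference of 2.56 (adjusted p = 0.000488), 1.05 in Sox2 48 h cells and −1.51 in Tbxt 48 h cells. Cyp26a1 kept its call against NMPs without any 1 library, and the other 6 lost theirs without at least 1. The NMP values are shared by both comparisons, so the size of each change from NMPs is not independent between the 48 h groups.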

How the results depend on the processing

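Against NMPs, 1025 genes were called. The count was 668 with a 20 CPM filter, 680 with the replicate block, 106 with a test against a 2-fold minimum, 1760 with only the compared libraries and 3510 with library weights. Leaving out 1 library gave 315 to 1233 genes. Against Tbxt 48 h cells, the count of 505 became 57 with the 2-fold minimum, 1051 with only the compared libraries and 1221 with library weights, and 124 to 575 with 1 library left out. The share of calls that were higher was 47.5% with all libraries, 63% when Sox2 48 h replicate 1 was left out and 58.4% when Tbxt 48 h replicate 1 was. Of 391 named genes tested, 146 were called, and no called gene reversed. Of the 146, 56 kept their call in every setting in which they were tested, of up to 17. Some of these, such as Fgf4 and Wnt8a, were tested in 16. Whether replicate numbers pair the libraries is not given. Deviations from the group means correlated at −0.10 for replicate 1 and −0.08 for replicate 2. With 2 Sox2 48 h libraries the deviations of that group mirror each other, so these values cannot decide it. Epha1 lost its call with a pseudocount of 0.25 (adjusted p = 0.0689) and Hoxa11 with a pseudocount of 4 (0.059). The cause of these changes was not tested. Depth of 3.96 and 4.38 M reads in the Sox2 48 h libraries limits statements on genes under about 1 CPM, where 3 reads are 0.757 and 0.686 CPM.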
